A study of Mus musculus with 15 samples.

Results

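The levels of 4 transcription factor genes, Hnf4a, Foxa2, Foxa3 and Pdx1, were followed in sorted mouse islet cells. They were found by their symbols in the deposited gene tables, where each was listed once among 23699 entries and had a usable value in all 15 libraries. All 4 were also among the 11253 genes tested. HNF4A and PDX1 are established genes of maturity-onset diabetes of the young (MODY), a dominantly inherited diabetes of the β cell. FOXA2 and FOXA3 are not usually counted among them, and belong here as partners of the same network.

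Pdx1 is a homeodomain factor that is needed to form the pancreas and later keeps insulin and glucose-sensing genes active in β cells. Foxa2 and Foxa3 are forkhead factors of the FoxA family, which can bind closed chromatin. Foxa2 acts upstream of Pdx1 in the pancreas, whereas Foxa3 is best known from liver. Hnf4a is a nuclear receptor that acts in hepatocytes and β cells, and it can be transcribed from a liver-type promoter and from a distal promoter favoured in islets.

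The islets came from mice of a mixed 129J and C57BL/6 background that carried cre and a cre-activated red fluorescent protein (RFP). RIP-Cre is driven by the rat insulin promoter and acts in β cells, whereas Pdx-Cre is driven by the Pdx1 promoter and acts in pancreatic precursors, so RFP can mark descendants other than β cells. RFP+ cells were split by aldefluor, a fluorescent substrate of aldehyde dehydrogenase (ALDH), into ALDH- and ALDH+ cells. The labels call the control mice triple heterozygous for FoxO 1, 3 and 4, where the study calls them wild-type, and the other mice triple knockouts for these genes. Control ALDH- cells gave 3 libraries (2 RIP-Cre, 1 Pdx-Cre) and control ALDH+ cells gave 2 (1 of each driver). Knockout ALDH- and knockout ALDH+ cells gave 5 libraries each (3 RIP-Cre, 2 Pdx-Cre). The RIP-Cre mice were 6 months old. Islets of several animals per genotype were isolated, and no source used here ties a library to an animal. The p-values therefore measure the spread between these libraries, which may be partly technical. If ALDH- and ALDH+ libraries share animals, the p-values between drivers and between genotypes would be too small.

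The summed fragments were 7492010 to 10057827 per library, and correlations between libraries of a group were 0.846 to 0.958. Foxo1 was at 12.0 to 20.1 FPKM (fragment counts corrected for the length of the transcript and the size of the library) in controls and at 0.0925 to 4.24 in the libraries labelled knockout. Foxo3 was not lower in those libraries (9.78 to 30.6, against 12.7 to 23.0 in controls). One value per gene cannot show whether a floxed exon was lost, and Foxo4 was at or below 1.34 everywhere. Aldh1a3 was at 0.490 to 4.09 FPKM in ALDH- and at 22.1 to 76.9 in ALDH+ libraries, without overlap. Of the β cell markers, Iapp, the islet amyloid gene, was at 33196 FPKM or more in every library, whereas Ins1 and Ins2 had no usable estimate in some or all libraries.

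Pdx1 was the most abundant of the 4 factors, with a median of 53.4 FPKM over the 15 libraries (range 19.7 to 96.1). Foxa2 had a median of 21.9 FPKM, Hnf4a of 6.91 and Foxa3 of 5.29. FPKM is scaled for transcript length, so these levels can be set side by side. Pdx1 exceeded Foxa2 in 14 of 15 libraries, by a median ratio of 2.39 (exact sign-flip test on log2 ratios, two-sided, p = 0.00012). Foxa2 exceeded Hnf4a in 15 of 15 libraries, by a median ratio of 2.92 (exact sign-flip test, p = 6.1e-05, the smallest it can give). Hnf4a and Foxa3 lay close: Hnf4a was higher in 11 of 15 libraries, with ratios from 0.786 to 4.06 and a median of 1.23 (exact sign-flip test, p = 0.010). These were the 3 pairs of neighbours compared. The pairs and their order were taken from the medians of the same libraries, so these tests are no separate evidence for the order.

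**Figure D1:**
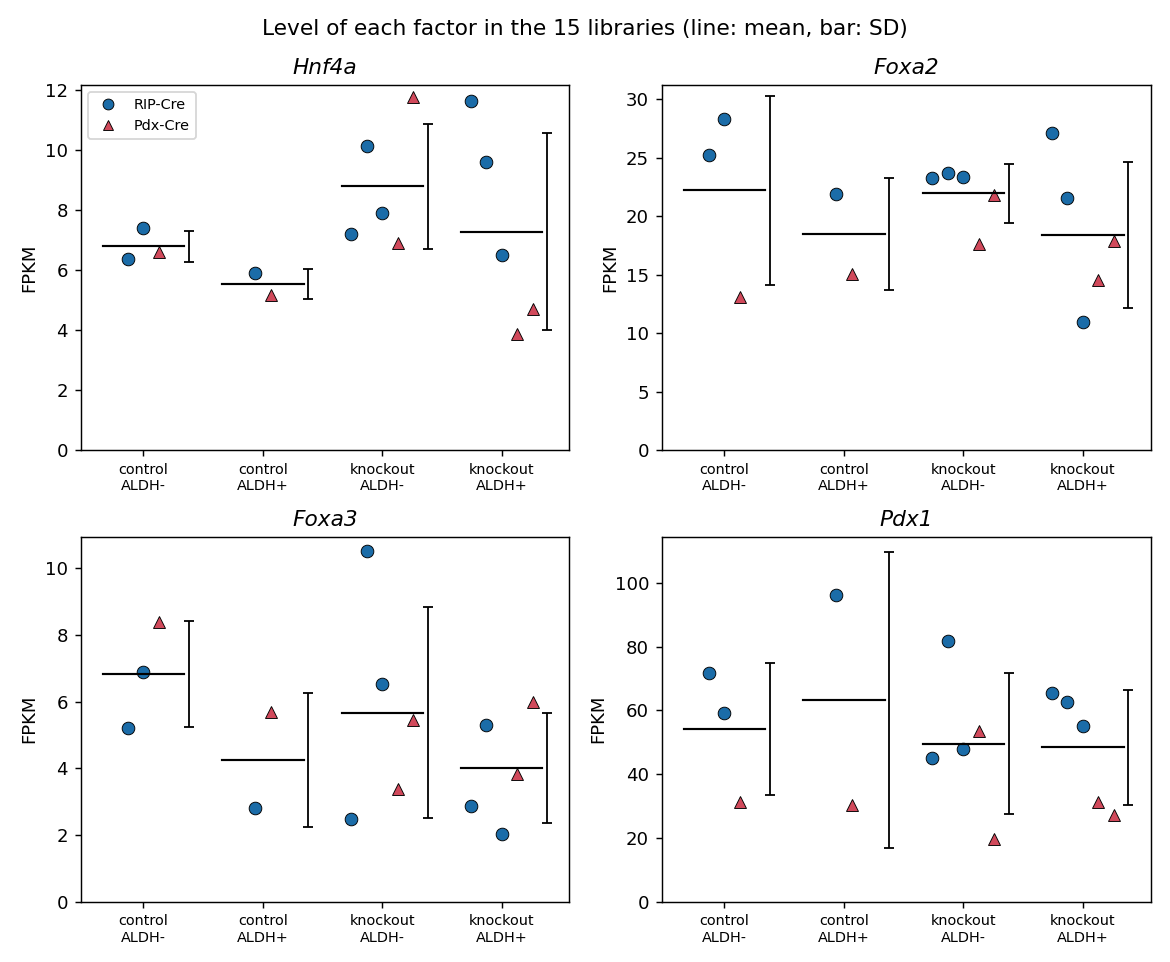
FPKM (y axis, linear from 0) of each factor in each library, by genotype and ALDH population (x axis), with circles for RIP-Cre and triangles for Pdx-Cre libraries. Lines are group means and bars are 1 SD. The Pdx1 triangles sit between 19.7 and 53.4 and the circles between 45.2 and 96.1.

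The values rested on 215 to 984 fragments per library for Pdx1, 192 to 675 for Foxa2, 167 to 497 for Hnf4a and 34 to 199 for Foxa3. Counting error alone was then 3.19% to 6.82% for Pdx1 and 7.09% to 17.1% for Foxa3, and it covers counting only. The coefficient of variation over the 15 libraries was larger for every factor, at 41.9% for Pdx1, 25.7% for Foxa2, 31.9% for Hnf4a and 45.7% for Foxa3.

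Pdx1 lies on chromosome 5 at 148081706 to 148086725 in mm9, as the tables give it. Its largest difference was between the cre drivers. In control ALDH- cells it was at 71.7 and 59.1 FPKM in the RIP-Cre libraries and at 31.3 in the Pdx-Cre library. In control ALDH+ cells it was at 96.1 FPKM with RIP-Cre and at 30.4 with Pdx-Cre. The Pdx-Cre library was the lowest of its group in both.

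In knockout ALDH- cells Pdx1 was at 45.2, 81.6 and 47.9 FPKM with RIP-Cre and at 53.4 and 19.7 with Pdx-Cre. In knockout ALDH+ cells it was at 65.5, 62.7 and 55.0 FPKM with RIP-Cre and at 31.4 and 27.2 with Pdx-Cre. In knockout ALDH+ cells the Pdx-Cre libraries thus lay below the RIP-Cre libraries without overlap, as did 14.6% of all tested genes there. In control ALDH- cells 50.7% of all tested genes had the Pdx-Cre library as the lowest of the 3, and in control ALDH+ cells, with 1 library of each driver, values cannot overlap. These shares were counted on FPKM before rescaling. For the fits the values of that control ALDH- Pdx-Cre library were divided by 0.918, and those of the RIP-Cre libraries of its group by 1.04. In knockout ALDH- cells the drivers overlapped for Pdx1, since replicate 4 (Pdx-Cre) exceeded the RIP-Cre replicates 1 and 3. Over all libraries the mean was 65.0 FPKM ± 16.3 (SD, n = 9) with RIP-Cre and 32.2 ± 11.3 (SD, n = 6) with Pdx-Cre.

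In limma's fit of all tested genes, with the 4 groups and the cre driver as terms, Pdx1 was lower in Pdx-Cre than in RIP-Cre libraries. The log2 difference of (rescaled FPKM + 1) was -0.98 (SE 0.19, 95% interval -1.38 to -0.58, adjusted p = 0.00464 by Benjamini-Hochberg over 11253 genes). Pdx1 ranked 231 by p. It was the 1 member of 4 called in this comparison, where 9.73% of all tested genes were called and 4.05% were called lower. An exact permutation of the drivers within the 4 groups gave a difference of -0.98 as well (two-sided p = 0.005 of 600 arrangements). Both tests take ALDH- and ALDH+ libraries as independent, and if these share animals, both p-values would be too small. Leaving out each library in turn gave -1.16 to -0.87.

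**Figure D2:**
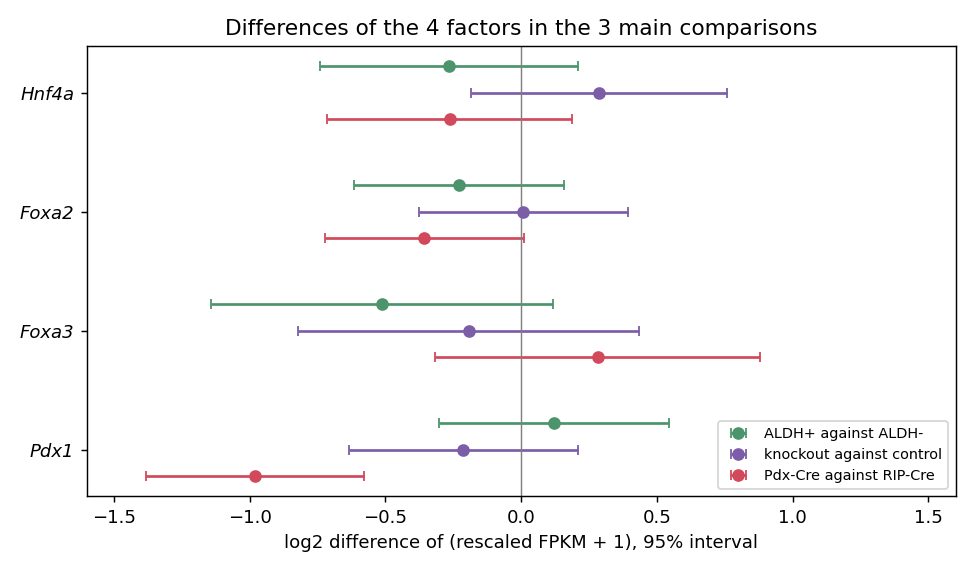
Log2 differences of (rescaled FPKM + 1) with 95% intervals (x axis) for the 4 factors (y axis) in the 3 main comparisons from limma. The interval of Pdx1 for Pdx-Cre against RIP-Cre, -1.38 to -0.58, is the 1 of 12 that does not reach 0.

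Genes that Pdx1 is known to act on in β cells were followed as a list of 8, of which 6 were tested. Ins1 and Ins2 were left out for lack of estimates. In Pdx-Cre libraries 5 of the 6 were called lower, and none higher, where 4.05% of all tested genes were called lower. The list's median log2 difference was -1.13, against -0.01 over all tested genes. The list was chosen with earlier results of these data known, and 4 of its tested genes are also on the β marker list.

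Slc2a2, the glucose transporter of rodent β cells, was at 8.61 to 24.6 FPKM (median 19.4) in Pdx-Cre libraries and at 99.95 to 227 (median 128) in RIP-Cre libraries. Its log2 difference was -2.87 (SE 0.24, adjusted p = 3.39e-06). Slc30a8, the zinc transporter of insulin granules, was at 28.8 to 100.4 FPKM with Pdx-Cre and at 159 to 272 with RIP-Cre, a log2 difference of -1.66 (SE 0.23, adjusted p = 0.000328). The ranges of the drivers did not overlap for either gene, nor for Nkx6-1 and Glp1r below. The share of all tested genes without such overlap over all libraries was not counted, so the lack of overlap is not shown to be particular to Pdx1 targets.

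Nkx6-1, a β cell homeodomain factor, was at 25.8 to 41.1 FPKM with Pdx-Cre and at 57.2 to 97.1 with RIP-Cre (log2 difference -1.02, SE 0.12, adjusted p = 0.000102). Glp1r, the receptor for glucagon-like peptide 1, had a log2 difference of -0.99 (SE 0.15, adjusted p = 0.0011). Mafa, a factor of mature β cells, was low throughout, at 0.434 to 2.51 FPKM with Pdx-Cre and at 2.32 to 13.9 with RIP-Cre (log2 difference -1.24, SE 0.32, adjusted p = 0.0227). The 1 listed gene that was tested and not called was Iapp, which encodes islet amyloid polypeptide, with a log2 difference of 0.21 (adjusted p = 0.788).

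**Figure D3:**
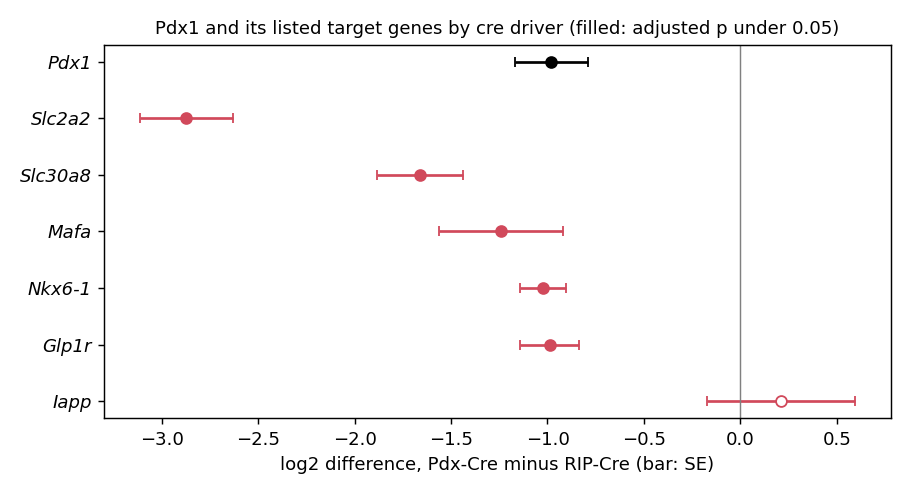
Log2 difference, Pdx-Cre minus RIP-Cre, with SE (x axis) for Pdx1 and 6 tested target genes (y axis). Filled points have an adjusted p under 0.05. Slc2a2 lies lowest at -2.87, whereas Iapp lies at 0.21.

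Markers of other pancreatic cells moved with the driver as well. In Pdx-Cre libraries 2 of 2 tested α cell markers were higher, with 1 of 2 δ cell, 1 of 2 PP cell, 2 of 5 acinar and 1 of 2 duct markers, where 5.68% of all tested genes were called higher. The duct marker was Krt19, while Sox9 of the same list was at or below 0.494 FPKM in every library. Of the 2 immune markers Cd68 was higher in Pdx-Cre libraries (34.4 to 148 FPKM, against 19.0 to 37.7), and Ptprc, the general leukocyte marker, was at or below 0.0214 FPKM in every library. Of the β cell markers, 4 of 6 were called lower, where 4.05% of all tested genes were. Slc2a2, Mafa and Nkx6-1 among them were already counted as Pdx1 targets. The summed α markers (Gcg and Irx2) were at 268 to 35841 FPKM in Pdx-Cre and at 154 to 1016 in RIP-Cre libraries. The summed δ markers (Sst and Hhex) were at 752 to 13646 FPKM with Pdx-Cre and at 414 to 1298 with RIP-Cre. The 5 summed acinar markers were at 0.140 to 1343 FPKM with Pdx-Cre and at 0 to 1.72 with RIP-Cre, and 1 of them was at 0 in all RIP-Cre libraries. The 3 endothelial and the 3 mesenchymal markers each summed to at most 1.48 FPKM in any library.

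Not every Pdx-Cre library stood high. In knockout ALDH+ replicate 4 the summed markers were 268 FPKM for α, 752 for δ, 318 for PP, 0.285 for acinar, 198 for duct and 34.4 for immune cells, none above the RIP-Cre range. Of the duct markers Krt19 by itself was above its RIP-Cre range, at 14.6 FPKM against at most 12.0. Pdx1 was at 31.4 FPKM in this 1 library, below all 9 RIP-Cre libraries. So were the β markers Slc2a2 (24.6 FPKM), Ucn3 (302), G6pc2 (1051), Mafa (1.11) and Nkx6-1 (41.1). Iapp (87332 FPKM) was within the RIP-Cre range. In knockout ALDH+ replicate 5 the summed α (600 FPKM), δ (1163) and PP (443) markers were also within the RIP-Cre ranges. Its acinar (629 FPKM), duct (715) and immune (59.6) sums were above them. The part of the other cells in the Pdx1 difference was not tested further, and in bulk RNA fewer β cells and less Pdx1 per cell cannot be told apart. Neither can the driver be told apart from anything else that differed between the mice of the 2 crosses.

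**Figure D4:**
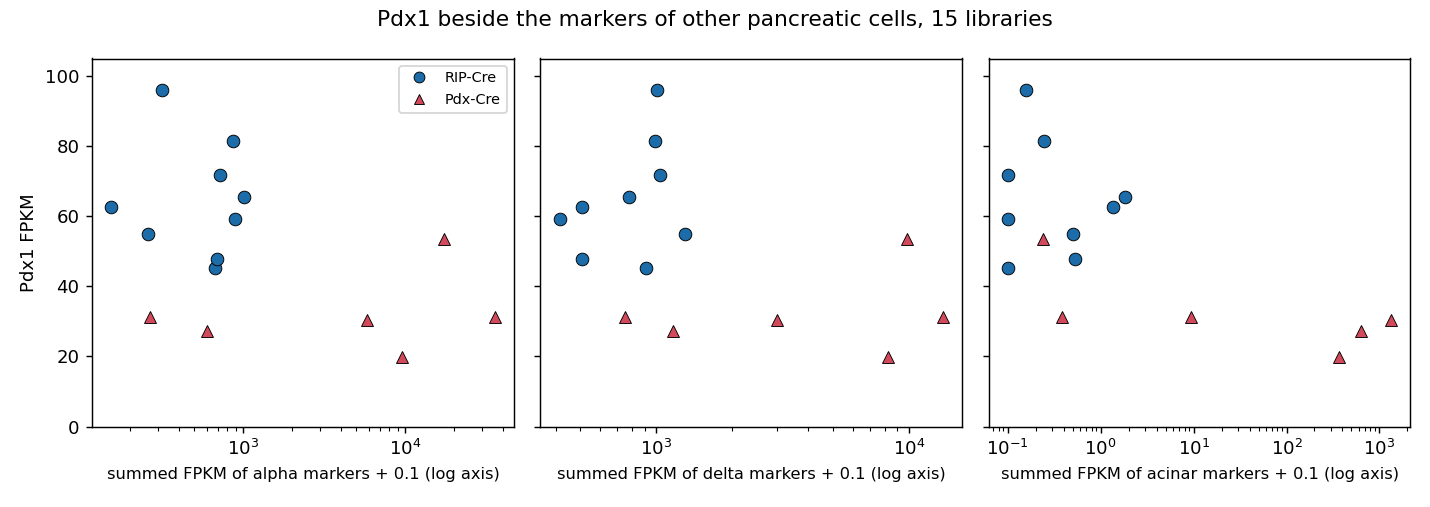
Pdx1 FPKM (y axis) against the summed FPKM of α, δ and acinar markers plus 0.1 (x axes, log scale) in the 15 libraries, with circles for RIP-Cre and triangles for Pdx-Cre. Triangles reach 35841 for α markers, and the triangle at 268 on that axis has Pdx1 at 31.4.

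Pdx1 also has an antisense neighbour. A gene listed as 2210019I11Rik, the antisense RNA Plut of GENCODE M21, overlaps 1391 bases of Pdx1 in the tables. It was at 2.00 to 7.27 FPKM with Pdx-Cre and at 2.65 to 15.5 with RIP-Cre (log2 difference -0.91, SE 0.28, adjusted p = 0.0474). Whether strand was used in counting is not given in the sources used here, and without it reads of the 2 genes in the shared bases cannot be told apart. The antisense gene's median was 5.02 FPKM against 53.4 for Pdx1.

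Pdx1 spans 5019 bases in the mm9 listing and 5751 from its RefSeq start, so the window below may lie outside the shared bases. The sequence just upstream of the RefSeq start of Pdx1, inside the stretch that the antisense gene spans, is shown. It is from RefSeq (GRCm38.p6, plus strand, chr5:147269847-147270096), a build other than that of the tables, and reads 5′ to 3′.
Pdx1, 250 bases before the start: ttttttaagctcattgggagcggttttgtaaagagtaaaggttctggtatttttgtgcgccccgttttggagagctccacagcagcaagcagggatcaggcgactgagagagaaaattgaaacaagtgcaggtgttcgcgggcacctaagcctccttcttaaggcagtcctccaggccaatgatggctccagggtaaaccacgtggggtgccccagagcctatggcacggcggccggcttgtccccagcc
It holds none of the 3 motifs searched on both strands, which were the forkhead core TAAACA, the homeodomain site TAATTA and the HNF4 element CAAAGTCCA. This says only that these letters are not in this window.

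Between ALDH populations Pdx1 differed by 0.12 on the log2 scale (ALDH+ minus ALDH-, SE 0.20, 95% interval -0.30 to 0.54, adjusted p = 0.787). With RIP-Cre libraries alone the difference was 0.35, and with Pdx-Cre libraries alone it was -0.15, neither past the threshold. Knockout against control gave -0.21 (SE 0.20, 95% interval -0.63 to 0.21, adjusted p = 0.897). The groups overlapped in both comparisons. The intervals reach 0.54 and -0.63, so a lack of change was not shown.

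Foxa2 lies on chromosome 2 at 147868613 to 147872705 (mm9). In control ALDH- cells it was at 25.3 and 28.3 FPKM with RIP-Cre and at 13.1 with Pdx-Cre. In control ALDH+ cells it was at 21.9 FPKM with RIP-Cre and at 15.1 with Pdx-Cre. As for Pdx1, the Pdx-Cre libraries were the lower ones, as they were for 50.7% of all tested genes in control ALDH- cells before rescaling. Control ALDH+ cells had 1 library of each driver, so either driver has to be the lower.

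In knockout ALDH- cells Foxa2 was at 23.3, 23.7 and 23.4 FPKM with RIP-Cre and at 17.6 and 21.9 with Pdx-Cre. In knockout ALDH+ cells it was at 27.1, 21.6 and 10.95 FPKM with RIP-Cre and at 14.6 and 17.9 with Pdx-Cre. In knockout ALDH- cells the Pdx-Cre libraries lay below the RIP-Cre libraries, as for 14.6% of all tested genes there. In knockout ALDH+ cells the drivers overlapped, because RIP-Cre replicate 3 was the lowest Foxa2 value of all 15 libraries.

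The log2 difference of Foxa2 between Pdx-Cre and RIP-Cre was -0.36 (SE 0.17, 95% interval -0.72 to 0.01, adjusted p = 0.209), which did not pass the threshold. The exact permutation test gave p = 0.0733. Without knockout ALDH+ replicate 3 the difference was -0.47 with an adjusted p of 0.0384, so that library decided the call. ALDH+ minus ALDH- was -0.23 (95% interval -0.61 to 0.16, adjusted p = 0.531). Knockout minus control was 0.01 (95% interval -0.38 to 0.39, adjusted p = 0.998), and its sign turned in several alternatives.

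The list of 4 genes that Foxa2 is known to act on in β cells was fully tested. In Pdx-Cre libraries 2 of the 4 were called lower, where 4.05% of all tested genes were. They were Slc2a2 and Hadh, the latter encoding a mitochondrial enzyme of fatty acid oxidation that restrains insulin secretion. Hadh was at 60.1 to 123 FPKM with Pdx-Cre and at 135 to 240 with RIP-Cre (log2 difference -1.02, SE 0.11, adjusted p = 6.12e-05). Abcc8 and Kcnj11, which encode the subunits of the ATP-sensitive potassium channel, had log2 differences of -0.23 and -0.28 (adjusted p = 0.184 and 0.143).

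Hadh was also the 1 gene of this list called between ALDH populations. It was lower in ALDH+ cells by a log2 difference of -0.59 (SE 0.12, adjusted p = 0.00926), where 3.77% of all tested genes were called lower. Abcc8 was higher in ALDH+ cells by 0.30 without passing the threshold (adjusted p = 0.118). The study's own list for wild-type mice, from DESeq on counts, has Abcc8 as higher there. None of the 4 was called between genotypes, and none had an unadjusted p under 0.05 there.

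Foxa3 lies on chromosome 7 at 19598631 to 19608888 (mm9), 837 bases from Sympk. In control ALDH- cells it was at 5.20 and 6.90 FPKM with RIP-Cre and at 8.39 with Pdx-Cre. In control ALDH+ cells it was at 2.82 FPKM with RIP-Cre and at 5.67 with Pdx-Cre. Here the Pdx-Cre library was the highest of its group in both, where Foxa2 and Pdx1 had it lowest. In control ALDH- cells 50.7% of all tested genes had it lowest before rescaling. The share with it highest was not counted, so this order is not read as a trait of Foxa3. Control ALDH+ cells had 1 library of each driver, so either driver has to be the higher.

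In knockout ALDH- cells Foxa3 was at 2.47, 10.5 and 6.52 FPKM with RIP-Cre and at 3.37 and 5.46 with Pdx-Cre. In knockout ALDH+ cells it was at 2.87, 5.29 and 2.03 FPKM with RIP-Cre and at 3.84 and 5.99 with Pdx-Cre. The drivers overlapped in both. The 3 RIP-Cre knockout ALDH- libraries alone covered most of the range of Foxa3 over the study.

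Among the 4 factors Foxa3 had the widest difference between ALDH populations, -0.51 on the log2 scale (ALDH+ minus ALDH-, SE 0.30, 95% interval -1.14 to 0.12). It did not pass the threshold (adjusted p = 0.351), and the exact permutation within genotype and driver gave p = 0.122. The difference was -0.76 with RIP-Cre libraries alone and -0.23 with Pdx-Cre libraries alone. Knockout minus control was -0.19 (95% interval -0.82 to 0.43, adjusted p = 0.942). Pdx-Cre minus RIP-Cre was 0.28 (95% interval -0.32 to 0.88, adjusted p = 0.576).

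Hnf4a is listed on chromosome 2 at 163372923 to 163398643 in mm9, with 1 transcription start and a span of 25720 bases. RefSeq places 2 starts for Hnf4a in GRCm38.p6, 40298 bases apart. The span from the distal start to the gene's end is 66050 bases there, and from the proximal start 25752. The span in the tables was within 32 bases of the latter. The first exon of the distal, islet-favoured form thus lay outside the gene model, and the Hnf4a values count exons shared by both forms together with the proximal first exon. The 2 forms could not be told apart. Hnf4aos, an antisense gene listed as 0610008F07Rik, lies 5466 bases away in the tables and was at 0 to 1.27 FPKM.

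The 250 bases before each of the 2 starts are shown because the tables' model begins at one of them. They are from RefSeq (GRCm38.p6, plus strand), at chr2:163506607-163506856 for the distal and chr2:163546905-163547154 for the proximal start, with capitals for matches to the 3 motifs named above on either strand.
Hnf4a, distal start: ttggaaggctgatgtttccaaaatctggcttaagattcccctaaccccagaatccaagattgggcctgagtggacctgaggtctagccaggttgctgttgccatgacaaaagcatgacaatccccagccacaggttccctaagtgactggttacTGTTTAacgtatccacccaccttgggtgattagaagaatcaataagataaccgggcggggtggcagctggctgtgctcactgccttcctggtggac
Hnf4a, proximal start: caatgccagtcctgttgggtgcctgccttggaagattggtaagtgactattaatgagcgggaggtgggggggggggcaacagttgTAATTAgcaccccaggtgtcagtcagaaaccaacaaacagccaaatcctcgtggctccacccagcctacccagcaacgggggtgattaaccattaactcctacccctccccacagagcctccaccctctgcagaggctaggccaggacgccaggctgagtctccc
The distal window holds 1 forkhead core, whose first printed base lies 96 bases before the start and which reads on the minus strand. The proximal window holds 1 TAATTA, whose first base is at position -165 from the start. Of all 32851 RefSeq windows of this length, 12.0% hold the forkhead core, 4.84% TAATTA and 0.384% the HNF4 element. A match is a description of letters, not a bound site.

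In control ALDH- cells Hnf4a was at 6.37 and 7.38 FPKM with RIP-Cre and at 6.59 with Pdx-Cre. In control ALDH+ cells it was at 5.88 FPKM with RIP-Cre and at 5.18 with Pdx-Cre. Controls thus ranged from 5.18 to 7.38.

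Knockout libraries covered a wider range, with 10 libraries against 5 of controls, and the difference in spread was not tested. In knockout ALDH- cells Hnf4a was at 7.21, 10.1 and 7.90 FPKM with RIP-Cre and at 6.91 and 11.8 with Pdx-Cre. In knockout ALDH+ cells it was at 11.6, 9.61 and 6.51 FPKM with RIP-Cre and at 3.88 and 4.71 with Pdx-Cre. The highest and the lowest Hnf4a values of the 15 libraries were both from Pdx-Cre knockouts.

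Knockout minus control was 0.29 on the log2 scale (SE 0.22, 95% interval -0.19 to 0.76, adjusted p = 0.859; exact permutation p = 0.175). ALDH+ minus ALDH- was -0.27 (SE 0.22, 95% interval -0.74 to 0.21, adjusted p = 0.552), and Pdx-Cre minus RIP-Cre was -0.26 (SE 0.21, 95% interval -0.71 to 0.19, adjusted p = 0.474). In knockouts the ALDH difference of Hnf4a was 0.12 with RIP-Cre libraries alone and -0.92 with Pdx-Cre libraries alone, neither past the threshold. The driver by ALDH interaction of Hnf4a was -0.80 (SE 0.39, 95% interval -1.62 to 0.03, adjusted p = 0.994 in limma). It was not called, and 0% of all tested genes were, with 4.54% at an unadjusted p under 0.05.

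Of 6 genes known as Hnf4a targets, 4 were tested, while Apoa1 and Apoc3 were below the filter of a mean of 1 FPKM. In Pdx-Cre libraries 1 of the 4 was called lower, where 4.05% of all tested genes were. It was Slc2a2, which stands on all 3 target lists. Ttr, which encodes transthyretin, differed by -0.71 between ALDH populations (adjusted p = 0.209) and by -0.54 between drivers (adjusted p = 0.276). The study's own list for wild-type mice, from DESeq on counts, has Ttr as lower in ALDH+ cells. None of the 4 was called between ALDH populations, where 1 had an unadjusted p under 0.05 (20.8% of all tested genes), or between genotypes, where none had (7.71%).

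Across the 3 main comparisons, limma called 1 of the 4 factors between drivers and none between ALDH populations or between genotypes. The same comparisons called 5.99% of all tested genes between ALDH populations and 0.116% between genotypes. At an unadjusted p under 0.05 the share was 20.8%, 7.71% and 25.7% of all tested genes between ALDH populations, genotypes and drivers, and 0, 0 and 1 of the 4 factors.

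Within controls the ALDH difference (ALDH+ minus ALDH-) ran from -0.68 for Foxa3 to 0.22 for Pdx1 on the log2 scale, and within knockouts from -0.34 for Foxa3 to 0.02 for Pdx1. None of the 4 was called in either, where 1.22% and 0.0178% of all tested genes were called. Knockout minus control ran from -0.36 for Foxa3 to 0.32 for Hnf4a in the ALDH- population, and from -0.31 for Pdx1 to 0.25 for Hnf4a in the ALDH+ population. Again none of the 4 was called, with 0.0178% and 0% of all tested genes called. The genotype by ALDH interaction was called for none of the 4 and for 0% of all tested genes, with 4.23% at an unadjusted p under 0.05.

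Other members of the same families were present in part. Hnf4g, a nuclear receptor close to Hnf4a, was at 0.776 to 8.64 FPKM. Foxa1 was at or below 0.145 FPKM and Onecut1 was listed at 0 in every library, so Foxa2 and Foxa3 were the FoxA genes detected above that level. Hnf4g, the 1 of these 3 genes that was tested, was not called in a main comparison. Its log2 difference between drivers was -0.77 (SE 0.29, adjusted p = 0.105 in limma).

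Of 9 other genes of monogenic diabetes 6 were tested, Ins2 being left out and Pax4 and Blk below the filter. None was called in the 3 main comparisons. At an unadjusted p under 0.05 there were 3 of the 6 between ALDH populations, where 20.8% of all tested genes were, and 4 between drivers, where 25.7% were. Klf11 was 0.51 higher in ALDH+ cells on the log2 scale without passing the test (adjusted p = 0.204), and Neurod1, a basic helix-loop-helix factor of endocrine cells, stood at 0.39 (adjusted p = 0.0857). All 6 had a positive log2 difference there, as 47.7% of all tested genes had, from 0.03 for Kcnj11 and 0.07 for Appl1 upward. Their median was 0.35 against -0.02 over all tested genes. The largest was that of Cel, at 1.30 (SE 0.62, adjusted p = 0.252). Cel encodes a digestive lipase and is also on the acinar marker list. It was at 33.5, 7.29 and 6.22 FPKM in 3 Pdx-Cre libraries and at or below 1.12 in all others. All 5 acinar markers had a positive log2 difference between ALDH populations (median 1.21) and none was called. The part of acinar cells in the Cel value was not tested.

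All 9 other islet transcription factors on the list were tested. Between drivers Nkx6-1 and Mafa were called lower in Pdx-Cre libraries, 2 of 9 where 4.05% of all tested genes were, and none was called higher. The other 7 were not called. Between ALDH populations and between genotypes none of the 9 was called, with 4 and none at an unadjusted p under 0.05, where 20.8% and 7.71% of all tested genes were. The 4 were higher in ALDH+ cells: Rfx6 by 0.46, Neurod1 and Pax6 by 0.39 and Nkx2-2 by 0.36 (adjusted p = 0.088, 0.0857, 0.0637 and 0.1345). The study's own list of differing genes has Rfx6 and Pax6 as higher in ALDH+ cells. That list rests on another test, DESeq on counts, and on wild-type mice only.

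The 4 factors did not vary together closely. Over the 15 libraries Pearson's r of log2(rescaled FPKM + 1) was highest for Hnf4a with Foxa2, at 0.54 (Spearman's rho 0.56). It was 0.36 for Foxa2 with Pdx1 and lowest for Foxa3 with Pdx1, at -0.19. These points share libraries, groups and drivers, and r is a description.

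The genes whose pattern was most like that of Pdx1 were Cplx2 (r = 0.91), Tmx3 (r = 0.91) and Paxip1 (r = 0.91). They were chosen over the libraries in which Pdx1 differed by driver, so a driver difference of theirs is no separate result. For Foxa2 they were March8 (r = 0.87), Hdac2 (r = 0.86) and St3gal3 (r = 0.82). For Foxa3 they were Ngfrap1 (r = 0.91), Sf3b2 and Atxn10 (both r = 0.84). For Hnf4a they were Srebf1 (r = 0.88), 2310033P09Rik (r = 0.85) and Ilk (r = 0.83). With Spearman's rho in place of r, 2 of the 3 genes were shared for Pdx1, 1 each for Foxa3 and Hnf4a, and 0 for Foxa2.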

How the data were processed

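RNA of sorted RFP+ islet cells was sequenced by the authors after poly-A selection and TruSeq preparation (15 libraries). Per the submitters' processing notes, reads were converted with bcl2fastq 1.8.4 and aligned with TopHat2 2.0.4 on mm9. The deposited tables give FPKM per gene with confidence bounds, in the layout of Cufflinks, whose version and annotation are not given in the sources used here. The authors tested counts with DESeq, and the FPKM deposited cannot enter that test.

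Of 23699 entries, 22924 genes were kept: repeated symbols (712 entries) and failed or too deep estimates (63 entries) were left out. Fragments were worked out from the bounds, taken as 2 SE of a Poisson count. FPKM values were rescaled by a trimmed mean of M-values (30% and 5% trimmed), and log2(FPKM + 1) was fitted in limma 3.58.1 (R 4.3.3) with a variance trend, 4 groups and the cre driver, for the 11253 genes with a mean of at least 1. A fold change on this scale understates that of low genes. Tests were two-sided, with Benjamini-Hochberg adjustment over all tested genes within each comparison and a threshold of 0.05. Exact tests permuted ALDH labels within genotype and driver (720 arrangements), genotype within ALDH population and driver (360) and driver within group (600), 12 tests in all. The fits were tested on simulated data.

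Genes named were the 4 factors, lists of relatives, targets, monogenic diabetes genes, islet factors and cell markers (those past the threshold and up to 4 others), and the 3 genes most correlated with each factor. Members and lists were chosen with earlier results of these data known. Some listed genes are not reported here, and counts, medians and sums leave them out. Alternatives covered scaling, pseudocount, filter, prior, libraries, driver, blocks and transcript length.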

Additional observations from a re-analysis of the deposited data

How the results depend on the processing

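Of the alternatives, 23 bore on the Pdx1 difference between Pdx-Cre and RIP-Cre libraries, which kept its direction and its call in each, at -1.16 to -0.87 on the log2 scale with adjusted p of 0.00044 to 0.033. The Foxa2 difference between drivers was -0.47 to -0.25 over the libraries left out in turn, and passed the threshold without knockout ALDH+ replicate 3. No other factor was called in any setting. The 24 alternatives to the exact tests kept direction and side of 0.05. The cause of the shifts was not tested.

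The sign of several uncalled values turned. For knockout minus control, averaged over ALDH populations, Foxa2 was -0.0066 without rescaling and -0.1522 with RIP-Cre libraries only, where Foxa3 was 0.077. With RIP-Cre libraries only, the ALDH difference of Hnf4a in knockouts was 0.1164, its genotype by ALDH interaction 0.3014, Foxa2 in ALDH- cells between genotypes -0.1372 and Foxa3 in ALDH+ cells 0.1758 (0.0057 with the compared groups only). With Pdx-Cre libraries only, the ALDH difference of Pdx1 was -0.1523 on average, -0.1618 in controls and -0.1427 in knockouts, that of Foxa2 in controls 0.08 and that of Foxa3 in knockouts 0.136. There, knockout minus control in ALDH+ cells was -0.2152 for Hnf4a and 0.1043 for Foxa2, and the genotype by ALDH interaction of Pdx1 was 0.0191.

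Leaving out each library in turn gave ranges that crossed 0. For Foxa2 they were -0.0875 to 0.1088 for knockout minus control on average, -0.1327 to 0.1836 in ALDH- and -0.1614 to 0.1495 in ALDH+ cells, -0.2285 to 0.0904 for the genotype by ALDH and -0.0728 to 0.3587 for the driver by ALDH interaction. For Pdx1 they were -0.062 to 0.288 for the ALDH difference on average, -0.1456 to 0.5515 in controls and -0.1093 to 0.2429 in knockouts, -0.3217 to 0.0108 and -0.649 to 0.0469 for knockout minus control in ALDH- and ALDH+ cells, and -0.527 to 0.1672 for the genotype by ALDH interaction. For Foxa3 they were -0.3603 to 0.2941 for knockout minus control in ALDH+ cells and -0.004 to 0.6529 for that interaction, and for Hnf4a -0.233 to 0.1025 for it.

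Counts of genes called over the whole table moved more. The ALDH comparison over both genotypes (674 genes) gave 332 without a filter, 420 without a variance trend, 185 without the driver term, 156 with RIP-Cre and 4 with Pdx-Cre libraries only, and 181 with the length trend removed. In controls (137) these were 59, 0, 0, 19, 0 and 0, and 444 with the compared groups only. In knockouts (2) the count was 0 without a filter and with RIP-Cre libraries only, 7 with Pdx-Cre libraries only and 1 with the compared groups only. Knockout against control (13) gave 47 without a filter, 8 without a trend, 6 without the driver term and 0 with Pdx-Cre libraries only. In ALDH- cells (2) it gave 1 without rescaling, without the driver term and with either driver's libraries only, 5 with a pseudocount of 5 and 0 without a trend. In ALDH+ cells (0) it gave 1 with a pseudocount of 5, 39 without a filter and 4 with RIP-Cre libraries only. Pdx-Cre against RIP-Cre (1095) gave 629 without a filter. The genotype by ALDH interaction (0) gave 26 without a filter, 1 with a filter at 5 and 3 with RIP-Cre libraries only, and the driver by ALDH interaction (0) gave 3 without a filter.

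With each library left out these counts ranged over 3 to 831, 0 to 245 and 1 to 3 for ALDH on average, in controls and in knockouts, over 1 to 15, 0 to 4 and 0 to 4 for genotype on average, in ALDH- and in ALDH+ cells, over 697 to 1266 for the driver, and over 0 to 3 and 0 to 2 for the interactions.

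For ALDH- and ALDH+ libraries with equal numbers in the labels, deviations from group and driver had correlations of -0.0446 to 0.0704 over 7 pairs. In knockouts, pairs with unequal numbers and the same driver lay lower, at -0.1521 to -0.0614 with RIP-Cre and at -0.2892 and -0.278 with Pdx-Cre. Deviations within a group and driver sum to about 0, so values near 0 do not show that libraries are unrelated. Whether equal numbers mark shared animals was not settled. A replicate block on the label numbers gave 9, 0 and 1 genes for ALDH on average, in controls and in knockouts, and 7 and 4 for genotype on average and in ALDH- cells, and turned the genotype difference of Foxa2 and Foxa3 in ALDH+ cells to 0.0779 and 0.1474. A replicate block within driver gave 262 and 1 for ALDH on average and in controls.

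The depth of 34 to 199 fragments limits Foxa3 most, and with 1 or 2 Pdx-Cre libraries per group the within-group differences between drivers rest on few samples.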
